A study of Mus musculus with 21 samples.

Results

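Mouse formative stem (FS) cells were compared, gene by gene, with the epiblast of mouse embryos at embryonic day 6.0 (E6.0). Of the 21 RNA-seq samples of the study, 9 enter this comparison: the 6 FS samples and the 3 E6.0 samples, taken by their names from a matrix of raw read counts per gene, over every gene with enough reads to be tested. The FS samples came from 2 lines, called line 1 and line 2 here, at passages 10, 11 and 18 of line 1 and passages 12, 13 and 16 of line 2. They were grown in the medium A3XR, which joins activin with XAV939, an inhibitor of tankyrase that dampens WNT signalling, and with an inverse agonist of the retinoic acid receptors. For each FS sample 1000 cells were collected, and each E6.0 sample was a single epiblast. No genotype, strain, sex or treatment is given for the FS lines or the embryos, and the sample titles place the embryos at E6.0 while the cell type field calls them E6.5 epiblast. The remaining 12 samples were epiblast stem cell (EpiSC) cultures in the media AF and AFX and epiblasts of E5.0 and E5.5, with 3 samples each, and they served to estimate the spread between samples. AF medium holds activin and FGF, and AFX adds XAV939; the titles of both kinds of culture name E14, a mouse embryonic stem cell line, and those of the FS samples do not.

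The epiblast is the tissue of the early embryo from which all cells of the body arise. After implantation its cells leave the naive state of the preimplantation embryo, lower Klf4, Zfp42 and their partners, raise Otx2, Fgf5 and the de novo DNA methyltransferases, and are still able to form germ cells and somatic layers. This interval is called formative pluripotency. Its cells sit in an epithelium that receives NODAL, WNT, BMP and FGF signals from itself and from neighbouring extraembryonic tissues, and the first cells to respond to them turn on T and Eomes in the primitive streak. FS cells were derived to hold this state in culture.

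The FS libraries held 7753188 to 15916800 counts assigned to genes, and the E6.0 libraries 7847469 to 13006656. The mitochondrial genome took 4.26% to 5.28% of the counts in FS samples and 7.03% to 7.36% in E6.0, and the 5 loci with the most counts, which were 2 mitochondrial ribosomal RNA genes and 3 loci annotated as miRNA or lincRNA, together took 19.9% to 24.5% and 22.1% to 27.1%. At least 5 counts were found for 15815 to 17827 genes per FS library and for 14903 to 15565 genes per E6.0 library. No pair of replicates agreed within sampling noise (chi-square per degree of freedom 7.57 to 18.5 over 9 pairs). Passages of 1 line are not separate derivations, although the tests count each as a sample. Both FS lines formed 1 group, so its spread holds passages and the difference between lines. The tests use a spread estimated jointly over all 6 groups of samples. The culture, the genetic background and the way of collection cannot be told apart. In pooled RNA, fewer cells of a type and less RNA per cell cannot be told apart either.

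Defining markers of the epiblast were checked first. All 7 (Pou5f1, Sox2, Otx2, Fgf5, Dnmt3b, Utf1 and Pou3f1) were detected in all 9 samples, and 5 of them were lower in FS cells. Their summed level was 1911 to 2874 CPM (read counts scaled to library size with TMM factors) in FS cells and 5676 to 7154 CPM in E6.0, and most of it was Dnmt3b. Without Dnmt3b the other 6 summed to 669 to 916 CPM in FS cells and 1143 to 1427 CPM in E6.0, a 1.67-fold ratio of the means in place of 2.8-fold. Of 16 genes of visceral and primitive endoderm, the tissue that wraps the epiblast, Ttr, Afp and Hnf4a had no count in any FS sample. In E6.0 the embryos had 0, 0.173 and 0.32 CPM of Ttr and 0.263, 0.26 and 0.533 CPM of Hnf4a. The list summed to 41.6 to 90.2 CPM in FS cells and 118 to 145 CPM in E6.0, with 6 of 14 tested genes lower and 0 higher in FS cells. Of the tested members 2 had no FS count and passed the filter through other groups. The number of lower genes ran from 1 to 8 over the alternative analyses, with 3 for line 1 and 7 for line 2 against E6.0. The call of Ttr, which rests on a few reads, was lost without embryo 2, without embryo 3 and with either line alone (adjusted p = 0.0685, 0.132, 0.105 and 0.0762). The share of this tissue in any result was not tested. Trophoblast genes summed to at most 6.98 CPM in FS cells and 6.58 CPM in E6.0, and of 7 tested of 12 Ascl2 was higher and Tfap2c lower. These calls were lost without embryo 2 (1.57), embryo 3 (2.11) or with line 2 alone (1.89) for Ascl2 and without embryo 2 (-1.18) or with line 1 alone (-1.51) for Tfap2c, with the log2 fold change then found in parentheses, beside 2.05 and -1.8 with all samples; line 1 or line 2 alone means that line against E6.0. Genes of mesoderm and blood stayed at 3.91 to 11.4 CPM in FS cells and 7.23 to 14 CPM in E6.0, where 2 of 7 tested, Tal1 and Cd34, were lower in FS cells, the call of Cd34 being lost with line 1 alone (-1.59 against -2.03). Fibroblast genes summed to 27.7 to 84.3 and 30.4 to 32.7 CPM, with Col1a1 higher and Dcn lower among 10 tested of 12; the call of Dcn (-2.6) was lost without embryo 3 (-2.09) or with line 2 alone (-2.02).

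Of 16614 genes tested, 6469 (38.9%) differed between FS cells and E6.0 epiblast at an adjusted p under 0.05 by edgeR's quasi-likelihood test with Benjamini-Hochberg adjustment. Of all genes, 20.1% (3337) were higher in FS cells and 18.9% (3132) were lower. The large changes leaned upward: 2258 genes rose and 859 fell by at least 2-fold, and 512 rose and 261 fell by at least 8-fold. The median log2 fold change of all genes, FS minus E6.0, was 0.10. In 6959 genes (41.9%) the range of the 6 FS samples did not overlap that of the 3 embryos, and 5699 of these passed the test. Among 13636 protein-coding genes 2922 rose and 2842 fell, whereas pseudogenes fell more often than they rose (189 against 54 of 864).

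**Figure D1:**
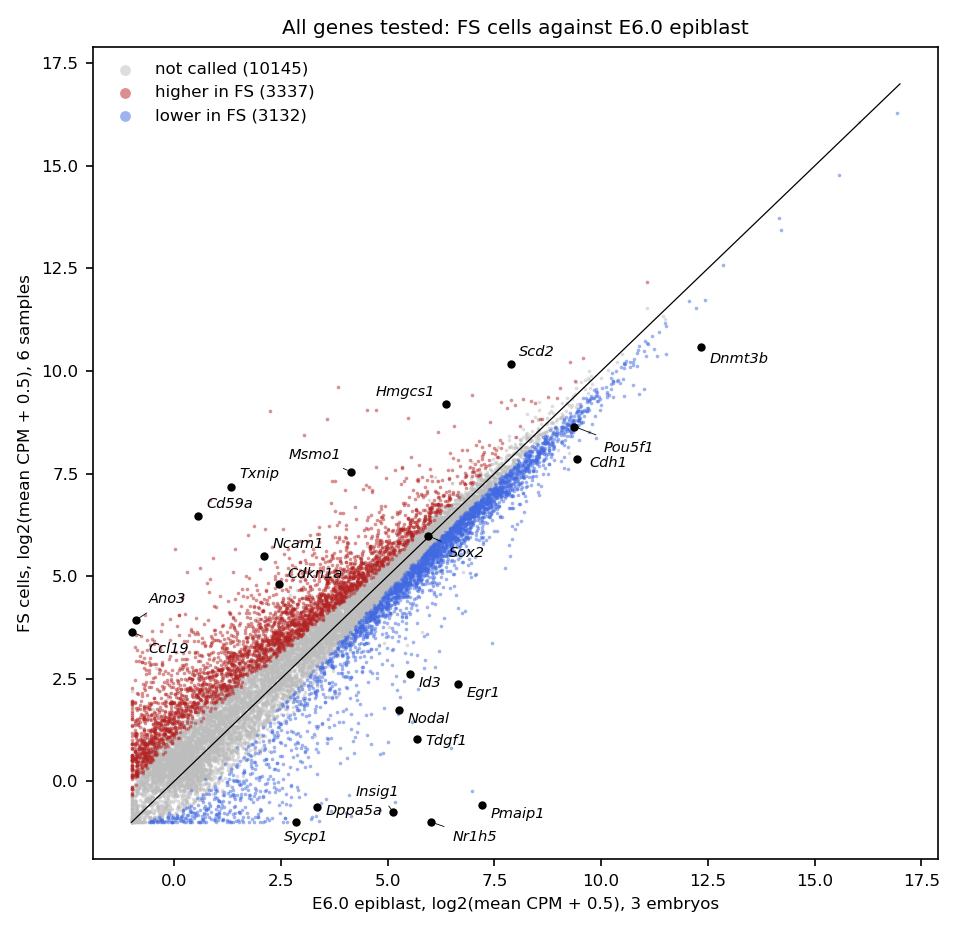
Mean level of each of the 16614 tested genes in E6.0 epiblast (x axis, 3 embryos) and in FS cells (y axis, 6 samples), both as log2(mean CPM + 0.5). Each point is a gene, red for the 3337 higher and blue for the 3132 lower in FS cells by edgeR, grey for the rest, and the line marks equal levels; Pmaip1, Insig1 and Nr1h5 lie far below it and Ano3, Ccl19 and Txnip far above.

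The genes with the steepest rise were named by a fixed rule on fold change, level and test. Ccl19, a chemokine that attracts lymphocytes (chr4:42754525-42756577 in the mm10 build), had 10.4 to 16.8 CPM (median 11.2) in FS cells and no count in any embryo. That is at least 37-fold above a level of 3 counts in each embryo library (adjusted p = 1.57e-06), although near-identical Ccl19 copies in the genome make the assignment of its reads uncertain. The AF cultures had 0.0881 CPM and the AFX cultures 0. Ano3, a member of the anoctamin membrane proteins (chr2:110655201-110950923), had 11.6 to 17.9 CPM (median 14.1) in FS cells against 0, 0 and 0.107 CPM in the 3 embryos, a ratio of 430.2 (95% counting interval 77.1 to 17009). All 6 FS samples held it and 2 embryos had no count. Txnip, which binds thioredoxin and restrains glucose uptake (chr3:96557957-96561883), had 83.6 to 199 CPM (median 137) in FS cells and 2.1, 2.34 and 1.6 CPM in the embryos (log2 fold change 6.15, SE 0.58, adjusted p = 7.04e-07). Every FS sample exceeded every embryo by far. Cd59a, a membrane shield against complement, rose from 0.96 ± 0.923 to 88.1 ± 44.1 CPM (mean ± SD, n = 3 and 6), and Lix1l from 0.195 ± 0.132 to 12.1 ± 1.75 CPM. Gm2564 was at 7.8 to 15.4 CPM in FS cells with a single count in 1 embryo, and no read in the AF or AFX cultures.

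In other steep risers the 2 FS lines stood apart. Of all genes, 2.63% differed between the lines at an adjusted p under 0.05. Cited1, a coactivator of transcription, was at 19.9, 20.9 and 20.3 CPM in the 3 passages of line 1, 0.402, 0.317 and 0.342 CPM in line 2 and 0.131, 0.0866 and 0.213 CPM in the embryos. Its rise (log2 fold change 6.07, SE 1.65, adjusted p = 0.008) lay in line 1 (log2 difference, line 2 minus line 1, -5.8, SE 0.53, adjusted p = 1.60e-07), and its call was lost when FS and E6.0 were fitted without the other groups (adjusted p = 0.0744) or with line 2 alone (1.26, adjusted p = 0.201). Gpr37, an orphan receptor of the nervous system, was at 5.67, 1.89 and 2.61 CPM in line 1, 29.8, 30.4 and 25.8 CPM in line 2 and at most 0.263 CPM in the embryos. Mctp1, a calcium-binding membrane protein, had the same order, with 2.98, 1.66 and 7.34 CPM in line 1 and 17.2, 18 and 20.2 in line 2. Gm10040 was at 45.4, 14.1 and 18.9 CPM in line 1 and 888, 1007 and 1146 CPM in line 2, Gm14149 at most at 9.34 and 242 CPM and Gm9864 at most at 76.2 and 1644 CPM. The call of Gm14149 was lost when FS and E6.0 were fitted without the other groups (adjusted p = 0.0507). These 3 predicted loci may share reads with related genes, so their values are uncertain.

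At the other end stood genes that the epiblast expressed and FS cells nearly lacked. Pmaip1, which encodes the cell death factor NOXA (chr18:66458533-66465565), had 139, 157 and 147 CPM in the embryos and 0 to 0.422 CPM (median 0.164) in FS cells (log2 fold change -9.77, SE 0.35, adjusted p = 2.41e-14). Insig1, which holds the sterol sensor SCAP in the endoplasmic reticulum (chr5:28071363-28078662), had 30.1, 28.2 and 45.5 CPM in the embryos and 0 to 0.326 CPM (median 0.0528) in FS cells (log2 fold change -8.46, SE 0.36, adjusted p = 1.80e-13). Both genes were high in every embryo and near 0 in every FS sample. Rps4l, a copy of a ribosomal protein gene, was at 92.7, 140.2 and 143 CPM in the embryos and 0.0994 to 0.57 CPM in FS cells. Slfn9, of the Schlafen family, was at 25.1, 27.2 and 30.3 CPM and 0 to 0.236 CPM. The fall of Nr1h5, a nuclear receptor, rested on embryos 2 and 3, which had 93.3 and 99.8 CPM, while embryo 1 had 0.263 CPM and the FS samples no count (at least 238-fold lower, adjusted p = 0.021). Its call was lost without embryo 2 or embryo 3 (adjusted p = 0.058 and 0.0601) and with line 1 or line 2 alone (0.0727 and 0.062). Gm4322 was also low in embryo 1, at 0.657 CPM against 33.3 and 13.1 CPM in the others.

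Cdcp1, a membrane protein phosphorylated by SRC kinases, fell from 17.2 ± 0.849 to 0.0507 ± 0.0839 CPM, a ratio of 400.4 (95% counting interval 136 to 1948). Ap1m2, the epithelial subunit of the AP-1 sorting complex, fell from 35.8 ± 1.71 to 0.204 ± 0.241 CPM (log2 fold change -7.48, SE 0.52, adjusted p = 2.41e-09). Dlg2, a synaptic scaffold, had 10.4, 18 and 8.42 CPM in the embryos and at most 0.236 CPM in FS cells, and Tuba3a, an alpha-tubulin, 5.78, 8.14 and 16.8 CPM and at most 0.422 CPM. Trim25, a ubiquitin ligase of antiviral signalling, was at 71.6, 87.6 and 109 CPM in the embryos, 0.398, 0.118 and 0.0815 CPM in line 1 and 1.69, 3.06 and 2.16 CPM in line 2. 2210016F16Rik fell from 16.6 ± 1.4 to 0.295 ± 0.378 CPM. None of these genes overlapped between the groups.

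Among called genes that fell by at least 2-fold without overlap, the highest mean CPM in E6.0 belonged to Dnmt3b, the de novo DNA methyltransferase of the postimplantation epiblast (chr2:153649450-153687730). It had 4533, 5324 and 5727 CPM in the embryos and 1211 to 1958 CPM (median 1469.9) in FS cells, a 3.35-fold fall (log2 fold change -1.75, SE 0.15, adjusted p = 4.83e-08). Gm15459, mt-Nd5, mt-Nd1 and mt-Cytb fell by 1.11, 1.43, 1.44 and 1.1 on the log2 scale. Upward, Scd2, a stearoyl-CoA desaturase, went from 249, 277 and 182 CPM in the embryos to 903 to 1379.9 CPM (median 1158) in FS cells (log2 fold change 2.29, SE 0.16, adjusted p = 1.43e-09), Tuba1a from 287 ± 27.7 to 635 ± 32.8 CPM, Malat1 from 2166 ± 867 to 4642 ± 1042 CPM, and D10Wsu102e from 236 ± 57.3 to 626 ± 156 CPM.

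The same contrast was then read through gene lists, each given by the number of its tested members that rose or fell and by its median log2 fold change, beside 0.10 for all genes and the overall shares of 20.1% higher and 18.9% lower. A value written with ± beside a gene is its log2 fold change, FS minus E6.0, and the standard error. Where a call is said to be lost, the sample left out or the other setting is named with the log2 fold change it gave; no filter means that genes with low counts were kept, and no other groups that FS and E6.0 samples alone were fitted. Members named because few of a list moved in that direction were chosen after their values were seen.

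**Figure D2:**
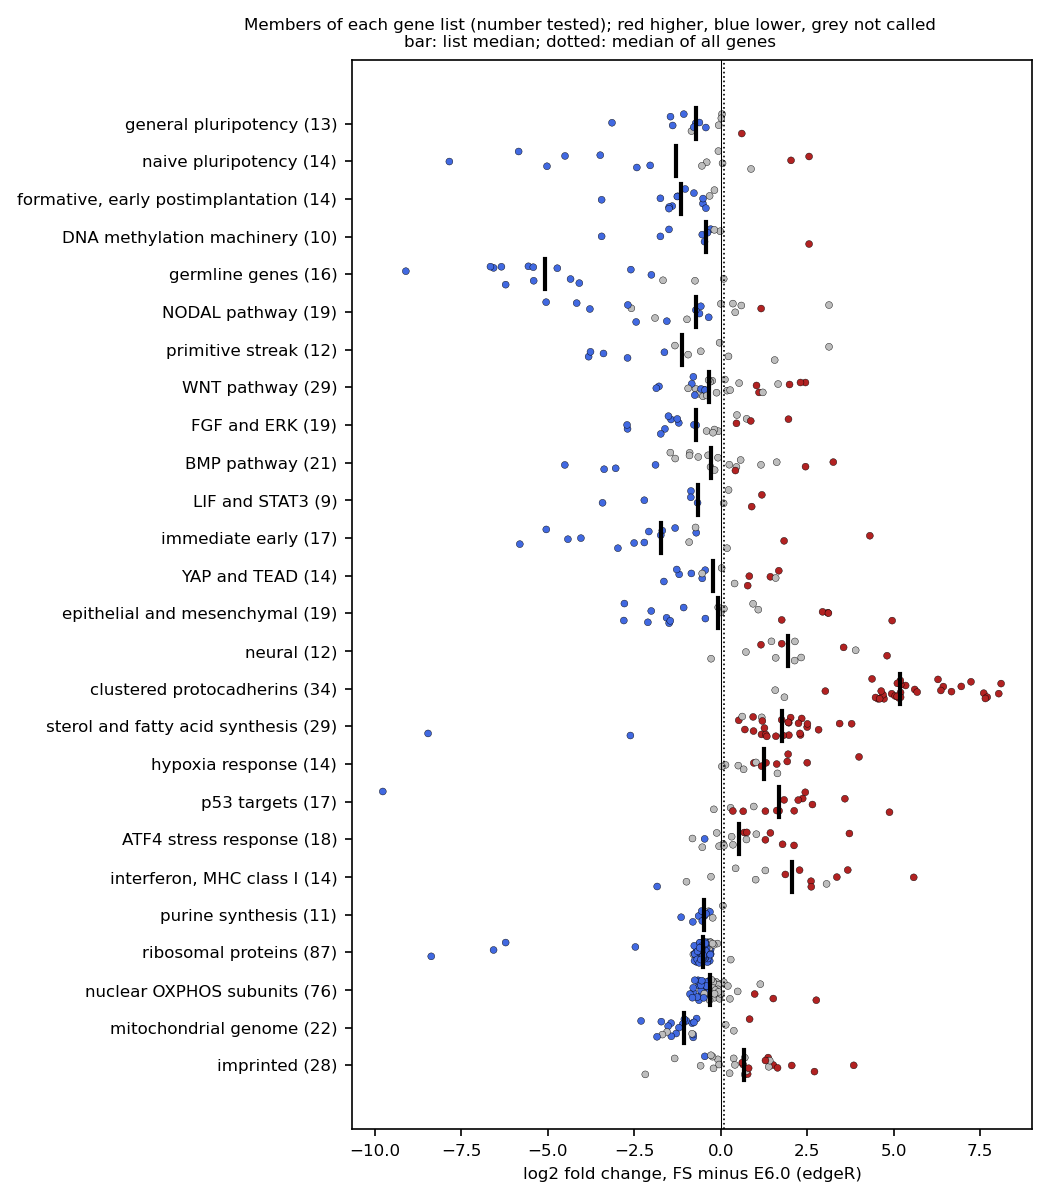
Log2 fold change, FS minus E6.0 (x axis), of every tested member of 26 gene lists (y axis, with the number tested); each point is a gene, red if higher, blue if lower and grey if neither by edgeR, the black bar is the list median and the dotted line the median of all genes. Germline genes have the lowest median (-5.07) and clustered protocadherins the highest (5.20), and sterol synthesis genes lie almost all to the right of 0 apart from Insig1 and Scd1.

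Factors of general pluripotency were all present in FS cells, mostly below the epiblast level: of 13 genes 8 fell and 1 rose (median -0.73). Pou5f1, which encodes OCT4, had 353 to 482 CPM (median 387) in FS cells and 623, 644 and 719 CPM in the embryos, so that the highest FS sample stayed below the lowest embryo (log2 fold change -0.73, SE 0.12, adjusted p = 4.24e-05). Its partner Sox2 had 42.4 to 77.8 CPM (median 65.1) against 50.3, 60.1 and 73.1 CPM, ranges that overlapped, and did not pass the test (log2 fold change 0.04, SE 0.22, adjusted p = 0.91). Nanog had 11.2 to 28.8 CPM (median 20.5) against 36.9, 44.6 and 28.6 CPM and did not pass either (log2 fold change -0.85, SE 0.44, adjusted p = 0.14). Utf1, a chromatin protein of pluripotent cells, fell from 179 ± 39.4 to 68.3 ± 26.4 CPM and Sall4 from 596 ± 17.9 to 284 ± 27.6 CPM. The largest fall in the list was that of Dppa4, a chromatin-bound protein of early embryonic cells, from 17.2 ± 2.78 to 1.91 ± 1.49 CPM (log2 fold change -3.15, SE 0.46, adjusted p = 4.36e-05). L1td1, an RNA-binding protein, was the one gene that rose (log2 fold change 0.61, SE 0.19, adjusted p = 0.015), a call lost without embryo 2 (0.53) or with line 1 alone (0.39).

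Of 14 tested genes of naive pluripotency, out of 15, 7 fell and 2 rose (median -1.29). Dppa5a, an RNA-binding protein, had 8.81, 9.62 and 10.6 CPM in the embryos and at most 0.245 CPM in FS cells (log2 fold change -5.84, SE 0.44, adjusted p = 8.34e-09). Dppa3, which guards imprints in the early embryo, had 3.55, 1.04 and 3.94 CPM in the embryos and no FS count, at least 10.5-fold lower. It passed the filter on low counts through groups other than FS. Zfp42, the marker REX1, fell from 2.73 ± 1.13 to 0.0797 ± 0.0909 CPM. The Kruppel-like factor Klf4 fell from 5.58 ± 0.547 to 1.34 ± 0.312 CPM and Klf2 from 4.52 ± 1.23 to 0.408 ± 0.281 CPM, and Tbx3 by 4.5 on the log2 scale. No FS sample reached the lowest embryo for Dppa5a, Zfp42 or Klf4. Tet2, a dioxygenase that oxidises methylcytosine, went the other way, from 5.92, 3.73 and 5.86 CPM in the embryos to 19.7 to 38.1 CPM (median 30.6) in FS cells (log2 fold change 2.55, SE 0.56, adjusted p = 0.002), and so did the secreted protein Spp1 (2.03 ± 0.74), whose call was lost without embryo 2 (1.6), embryo 3 (2.15), passage 10 (1.94), passage 12 (1.57), with line 1 alone (1.63) or no filter (2.02).

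Genes that mark the formative and early postimplantation epiblast were lower as a group: 12 of 14 fell and 0 rose (median -1.14). Pou3f1, a POU factor of the postimplantation epiblast (chr4:124656807-124660655), had 111, 159 and 177 CPM in the embryos and 39.6 to 80.8 CPM (median 53.9) in FS cells (log2 fold change -1.4, SE 0.18, adjusted p = 3.35e-06). Etv5, a target of ERK signalling, fell from 296 ± 29.6 to 124 ± 39.3 CPM, Grhl2, an epithelial enhancer factor, from 66.9 ± 5.78 to 23.8 ± 3.67 CPM, and Sox3 from 52.7 ± 9.83 to 25.8 ± 3.71 CPM. Fgf5, the ligand most used to mark this stage, did not differ beyond the spread: 56.2 to 126 CPM (median 86.9) in FS cells and 94.1, 106 and 96.3 CPM in the embryos overlapped, with a log2 difference of -0.18 ± 0.22 (SE) and an adjusted p of 0.54. Otx2, the factor that moves cells out of the naive state, had 58.4 to 114 CPM (median 92) against 109, 133 and 137 CPM; its ranges overlapped and its call (log2 fold change -0.52 ± 0.2, adjusted p = 0.046) was lost in 11 of 18 alternative analyses, whose adjusted p ran from 0.017 to 0.17. Compared on its own with E6.0, line 1 gave 12 lower genes and line 2 8.

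**Figure D3:**
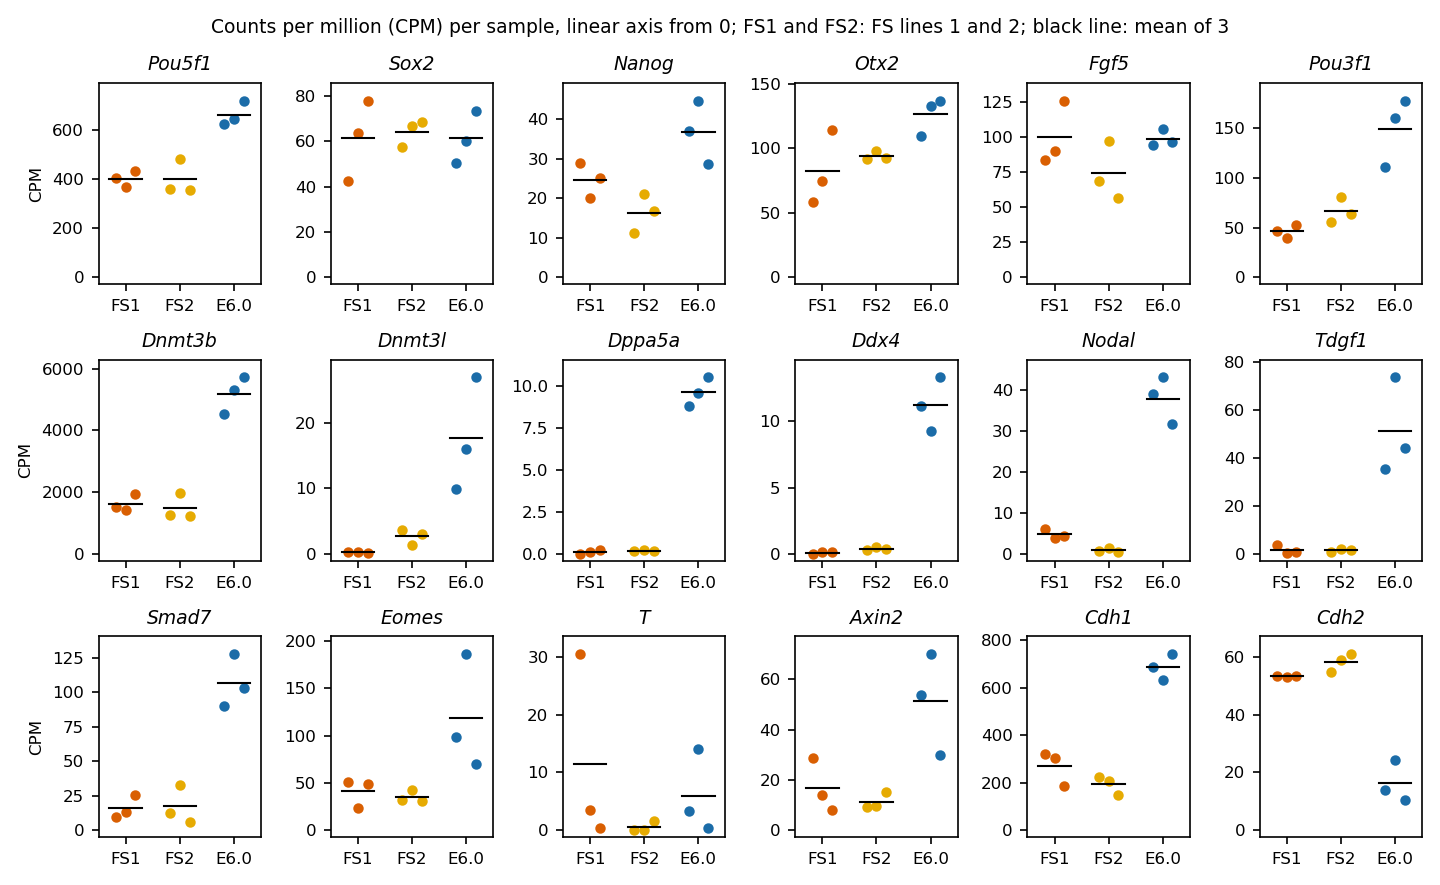
CPM of 18 genes of pluripotency, DNA methylation, NODAL and WNT signalling and adhesion (one panel per gene, linear y axis from 0) in FS line 1, FS line 2 and E6.0, 3 samples each; points are samples and black lines means. Sox2 and Fgf5 overlap between FS cells and embryos, Dnmt3b, Nodal, Tdgf1 and Cdh1 are lower in every FS sample, Cdh2 is higher in every FS sample, and T stands out in passage 10 of line 1.

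Among genes of DNA methylation the de novo enzymes fell most. Besides Dnmt3b, Dnmt3a had 504, 528 and 653 CPM in the embryos and 159 to 266 CPM (median 190.1) in FS cells (log2 fold change -1.5, SE 0.13, adjusted p = 1.12e-08). Dnmt3l, the inactive partner that stimulates both enzymes, had 9.86, 16 and 27 CPM in the embryos, 0.298, 0.355 and 0.163 CPM in line 1 and 3.7, 1.37 and 2.96 CPM in line 2 (log2 fold change -3.44, SE 0.62, adjusted p = 4.82e-04). The chromatin remodeller Hells fell by 0.47 and the glycosylase Tdg by 0.38 on the log2 scale, and of the 3 TET oxidases Tet2 alone passed. In all, 7 of 10 genes of the list fell and 1 rose (median -0.43).

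Germline genes that promoter DNA methylation is known to silence after implantation showed the lowest median of the lists. Of 17 genes 16 were tested, 13 fell, none rose and the median was -5.07, or -4.49 with genes at 0 counts set to their bound. Of the tested members 3 had no FS count and passed the filter through other groups, so that these figures are a description. The promoters of 3 of them are shown here because a cluster of such genes is known to be repressed in somatic cells through the E-box bound by MGA and MAX and the site bound by E2F6. They are the 250 bases before the annotated start in the RefSeq promoter table (GRCm38.p6), read 5′ to 3′ on the gene's strand, with CACGTG and GCGGGAA, searched on both strands, in capitals. The first lies at chr13:112652311-112652560 on the minus strand, the second at chr1:166238745-166238994 on the minus strand and the third at chr3:102936101-102936350 on the minus strand.
Ddx4: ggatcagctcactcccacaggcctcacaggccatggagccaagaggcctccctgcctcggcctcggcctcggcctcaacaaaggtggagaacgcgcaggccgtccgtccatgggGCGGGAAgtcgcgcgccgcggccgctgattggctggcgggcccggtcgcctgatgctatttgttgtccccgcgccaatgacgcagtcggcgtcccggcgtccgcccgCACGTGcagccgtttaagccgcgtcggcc
Mael: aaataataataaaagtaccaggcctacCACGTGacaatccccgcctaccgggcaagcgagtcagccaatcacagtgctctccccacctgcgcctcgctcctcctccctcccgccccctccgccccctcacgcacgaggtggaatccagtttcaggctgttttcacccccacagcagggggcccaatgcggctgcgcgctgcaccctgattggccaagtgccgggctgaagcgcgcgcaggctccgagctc
Sycp1: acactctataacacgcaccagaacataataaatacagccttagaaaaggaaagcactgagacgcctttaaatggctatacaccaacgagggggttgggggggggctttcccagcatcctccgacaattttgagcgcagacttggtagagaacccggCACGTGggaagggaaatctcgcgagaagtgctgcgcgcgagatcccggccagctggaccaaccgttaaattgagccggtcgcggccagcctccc

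The E-box lay 29 bases before the RefSeq start in Ddx4, 94 in Sycp1 and 223 in Mael. GENCODE starts Ddx4 165 bases further upstream, which puts the E-box 136 bases after that start, and the 2 starts differ by 3 bases for Mael and by 0 for Sycp1. The E2F6 site was present in Ddx4 alone of the 3. The E-box was found in 11 of the 16 members with a promoter in the table (68.8%), against 8.09% of 27025 genes and 12.8% of the 10038 genes whose window held at least 15 CpG, all over 250 bases before to 50 after the start. The E2F6 site was found in 7 of the 16, against 5.29% and 11.4%. The motifs were chosen after the values were seen, and a match is a description of letters, not of binding. Ddx4, an RNA helicase of germ cells (chr13:112598333-112652475), had 11.2, 9.27 and 13.3 CPM in the embryos and 0 to 0.528 CPM (median 0.242) in FS cells (log2 fold change -5.41, SE 0.45, adjusted p = 1.19e-08). Sycp1, of the synaptonemal complex, had 1.18, 8.84 and 10.1 CPM in the embryos and no FS count, at least 24.8-fold lower. Mael, which acts in transposon silencing, had 1.45, 3.64 and 2.45 CPM and at most 0.106 CPM in FS cells, and Dazl, an RNA-binding protein of germ cells, 1.05, 0.866 and 1.28 CPM and at most 0.106 CPM. Both were lower in every FS sample than in any embryo. Tdrd1, a scaffold of the same silencing pathway, fell from 5.1 ± 0.657 to 0.0877 ± 0.085 CPM, and the helicase Mov10l1 had 3.29, 4.59 and 8.63 CPM in the embryos, a ratio of 130.5 (95% counting interval 43.8 to 639). Stag3 differed between the lines, with 9.34, 1.06 and 5.46 CPM in line 1, 43.1, 47.2 and 32.3 CPM in line 2 and 22, 21.4 and 22.4 CPM in the embryos.

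NODAL signals through activin receptors and the coreceptor TDGF1 (CRIPTO) to SMAD2 and SMAD3, and turns on its own gene and its antagonists. Of 19 genes of the pathway 10 fell and 1 rose (median -0.72), in cells whose medium supplies activin. The ligand gene Nodal (chr10:61417972-61425338) had 38.9, 43.1 and 31.5 CPM in the embryos, 5.96, 3.9 and 4.4 CPM in line 1 and 0.805, 1.37 and 0.456 CPM in line 2 (log2 fold change -3.78, SE 0.65, adjusted p = 2.70e-04). Tdgf1 had 35.5, 73.8 and 44.2 CPM in the embryos and 0.236 to 3.58 CPM (median 1.3) in FS cells (log2 fold change -5.05, SE 0.68, adjusted p = 3.61e-05). No FS sample reached the lowest embryo for either gene. The antagonist Lefty2 had 4.47, 8.66 and 3.73 CPM in the embryos and at most 0.795 CPM in FS cells (log2 fold change -4.17, SE 1.06, adjusted p = 0.005). Lefty1 had 10.6, 7.45 and 9.91 CPM and 0 to 4.38 CPM and did not pass (log2 fold change -2.59, SE 1.27, adjusted p = 0.12). Both proteases that process NODAL fell, Pcsk6 by 2.45 and Furin by 0.72 on the log2 scale. Of the receptors Acvr2b fell (-0.62 ± 0.13) and Acvr1b and Acvr2a did not pass (0.42 ± 0.17 and 0.35 ± 0.2). Smad3 rose from 23.6 ± 3.22 to 52.9 ± 11.2 CPM, and the inhibitory target Smad7 fell from 107 ± 19.2 to 16.7 ± 10.2 CPM (log2 fold change -2.69, SE 0.45, adjusted p = 2.44e-04) and Skil from 371 ± 6.71 to 126 ± 23.2 CPM. Gdf3, a related ligand, was at 0.199, 0.591 and 0.0815 CPM in line 1, 6.44, 5.6 and 6.09 CPM in line 2 and 2.37, 1.56 and 2.56 CPM in the embryos, so that the lines lay on opposite sides of the embryos.

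The contrasts of FS cells with AF and AFX cultures share the 6 FS samples with the contrast above, and medium and cell line cannot be told apart in them, and are set beside it for genes that turn on it. In those contrasts 15.7% and 6.88% of all genes were called. Tdgf1 was at 86.6 ± 30.5 CPM in AF and 8.98 ± 10.4 CPM in AFX cultures, and FS minus AF was -5.80 (adjusted p = 2.67e-05) and FS minus AFX -2.58 (adjusted p = 0.045). For Nodal, the AF mean was 22.3 ± 8.2 CPM and the AFX mean 3.74 ± 4.91 CPM, with FS minus AF at -3.02 (adjusted p = 0.004) and FS minus AFX at -0.48 (adjusted p = 0.81). For Insig1 the values were 43.4 ± 7.18 and 96.8 ± 14 CPM, with -8.79 (adjusted p = 8.12e-14) against AF and -9.95 (adjusted p = 4.75e-15) against AFX, so that it was nearly absent from FS cells alone among these 4 groups. Pmaip1 was at 1.11 ± 0.76 CPM in AF and 0.0919 ± 0.0299 CPM in AFX cultures.

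Of 12 tested primitive streak genes of 14, 5 fell and none rose (median -1.14). Eomes, a T-box factor, had 98.3, 187 and 69.7 CPM in the embryos and 23.6 to 51.3 CPM (median 37.1) in FS cells (log2 fold change -1.63, SE 0.37, adjusted p = 0.002). T, or brachyury, was at 30.5, 3.43 and 0.326 CPM in line 1, 0, 0.106 and 1.65 CPM in line 2 and 3.29, 14.1 and 0.32 CPM in the embryos, and did not pass (log2 fold change -0.03, SE 1.29, adjusted p = 0.99). Passage 10 of line 1 and embryo 2 were the high samples. Embryo 2 also had the highest level of Mixl1 (10.2 CPM against 0.657 and 0.213), Evx1 (11.8 against 3.68 and 0.32) and Fgf8 (78.8 against 39.96 and 32.8). The falls of Mixl1 (-3.82), Evx1 (-3.77) and Fgf8 (-2.7) did not hold in every setting. That of Mixl1 was lost without embryo 2 (-0.68) or with line 1 alone (-2.91). That of Evx1 was lost without embryo 2 (-2.33), passage 12 (-3.49), passage 13 (-3.52), passage 16 (-3.46), with line 1 alone (-2.72), no filter (-3.78), no other groups (-3.85) or DESeq2 (-3.71). That of Fgf8 was lost without embryo 2 (-2.21), with line 1 alone (-1.79) or no other groups (-2.74). That of Gsc, a homeobox gene of the anterior streak (log2 fold change -3.39, SE 0.76, adjusted p = 0.002), was kept in all 18 alternative analyses. Cer1, an antagonist of NODAL and BMP, was at 0 to 7.06 CPM in FS cells and 0.173 to 0.263 CPM in embryos and did not pass (log2 fold change 3.13, SE 2.1, adjusted p = 0.25).

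In the WNT pathway 5 genes rose and 8 fell of 29 tested (median -0.35). All 4 TCF/LEF factors, which carry beta-catenin to its targets, were lower: Lef1 went from 124, 119.5 and 111 CPM in the embryos to 46.6 to 95.2 CPM (median 59.9) in FS cells (log2 fold change -0.84, SE 0.21, adjusted p = 0.003), and Tcf7, Tcf7l1 and Tcf7l2 fell by 0.75, 0.47 and 0.57 on the log2 scale. The call of Tcf7l1 was lost without embryo 3 (-0.34) or with line 1 alone (-0.33), and that of Tcf7l2 without embryo 1 (-0.46), embryo 3 (-0.61), with line 1 alone (-0.6) or line 2 alone (-0.54). The feedback target Axin2 had 53.8, 70.1 and 29.7 CPM in the embryos and 8.07 to 28.6 CPM (median 11.7) in FS cells (log2 fold change -1.86, SE 0.36, adjusted p = 5.59e-04). Its highest FS sample, passage 10 of line 1, lay just below the lowest embryo. The receptor Fzd7 fell from 277 ± 34.2 to 80.3 ± 13.3 CPM and the coreceptor Lrp5 by 0.79. Rising members were the ligand Wnt4 (2.45 ± 0.48), the receptor Fzd1 (1.99 ± 0.51), the secreted antagonist Sfrp1 (1.1 ± 0.22) and the feedback genes Rnf43 (2.3 ± 0.83) and Nkd1 (1.03 ± 0.3). The call of Rnf43, whose ranges overlapped, was lost without embryo 2 (2.25), embryo 3 (1.89), passage 11 (2.01) or with line 2 alone (1.87), and that of Nkd1 with line 2 alone (0.72).

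Of 8 feedback genes of the FGF and ERK pathway, which dampen it and are known to follow its activity, 6 fell and 1 rose. Of all 19 genes 10 fell and 3 rose (median -0.71). Spry4 fell from 34.1 ± 5.3 to 12.1 ± 5.1 CPM, Dusp4, a phosphatase of MAP kinases, from 113 ± 36.7 to 17.2 ± 6.25 CPM (log2 fold change -2.71, SE 0.26, adjusted p = 3.22e-07), and Dusp6 by 0.71 on the log2 scale. Spred1 rose (0.87 ± 0.2). Among the ligands Fgf15 fell (-1.61 ± 0.35), and Fgf4 had 17.9, 8.63 and 7.83 CPM in line 1, 26.2, 31.9 and 23.1 CPM in line 2 and 17.4, 16.9 and 26.5 CPM in the embryos. Of 4 receptors Fgfr1 (0.45 ± 0.11) and Fgfr3 (1.96 ± 0.63) were higher, the latter with overlapping ranges and a call lost without embryo 3 (1.62) or with line 2 alone (1.6).

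The immediate early genes, which cells induce within minutes of a stimulus, were mostly lower: 12 of 17 fell and 2 rose (median -1.74). Egr1, a zinc finger factor downstream of ERK (chr18:34859823-34864984), had 119, 112 and 67.7 CPM in the embryos and 3.02 to 7.58 CPM (median 4.31) in FS cells (log2 fold change -4.42, SE 0.47, adjusted p = 2.47e-06). The lowest embryo was above the highest FS sample by far. Egr2 and Egr3 fell by 5.81 and 5.05, Fosb by 4.04 and Junb by 2.21 on the log2 scale. Myc, a driver of growth, had 58.8, 87.8 and 79.1 CPM in the embryos and 6.61 to 23.1 CPM (median 12.8) in FS cells (log2 fold change -2.51, SE 0.32, adjusted p = 1.09e-05). Ier3 (3 counts in all embryos, ratio 22.8 (95% counting interval 7.65 to 111)) and Btg2 (1.83 ± 0.29), which are also known as p53 targets, rose.

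BMP targets fell in 4 of 7 cases and none rose, while none of 4 receptors passed. Of 21 tested genes of 22, 3 rose and 4 fell (median -0.30). Id3, an inhibitor of bHLH factors, had 44, 52.9 and 39.2 CPM in the embryos and 2.11 to 8.4 CPM (median 6.62) in FS cells (log2 fold change -3.04, SE 0.42, adjusted p = 2.24e-05). Id1 fell from 18.9 ± 12 to 1.8 ± 0.588 CPM, Id2 from 13.3 ± 5.95 to 3.62 ± 0.984 CPM and the homeobox gene Msx1 from 6.16 ± 2.85 to 0.272 ± 0.209 CPM. The 3 that rose were the effector Smad5 (0.42 ± 0.14), the antagonist Chrd (2.45 ± 0.77) and the ligand Bmp7 (3.25 ± 1.06, with overlapping ranges). The call of Smad5 was lost without embryo 2 (0.43) or embryo 3 (0.37). The call of Chrd was lost without embryo 1 (2.31), embryo 3 (2.12) or with line 2 alone (1.51). The call of Bmp7 was lost without embryo 1 (3.18), embryo 3 (2.83), with line 2 alone (1.84), no filter (3.25) or no other groups (3.22).

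Smaller sets of signalling genes moved in both directions. In the retinoic acid list 13 of 19 genes were tested, 3 fell and 1 rose, while the median was positive (0.39). Of the 3 receptors tested, Rara and Rarg were lower (-1.4 ± 0.13 and -0.62 ± 0.11), as was the reductase and known retinoic acid target Dhrs3 (log2 fold change -2.25, SE 0.4, adjusted p = 1.34e-04), while Stra6, which takes up retinol, was higher (1.19 ± 0.4), a call lost without embryo 1 (1.04), embryo 2 (1.2), passage 10 (0.91) or with line 2 alone (0.57). In the LIF and STAT3 list 5 of 9 fell and 2 rose (median -0.67): Stat3 (1.19 ± 0.23) and the coreceptor Il6st (0.89 ± 0.25) went up, and the kinase and STAT3 target Pim1 (-3.42 ± 0.37), Junb, Socs2 (-0.87 ± 0.16), Lifr (-0.86 ± 0.23) and Pim3 (-0.67 ± 0.23) down. The calls of Il6st and Lifr were lost without embryo 3 (0.78) and without embryo 2 (-0.55). Pim3 lost its call without embryo 2 (-0.57), embryo 3 (-0.7), passage 10 (-0.59), passage 16 (-0.63) or with line 2 alone (-0.56). Among 14 YAP and TEAD genes 4 rose and 6 fell (median -0.21). By role, 3 of 6 factors rose and 2 fell (median 0.59), while 1 of 8 targets rose and 4 fell (median -0.69). The factors Tead1 (1.43 ± 0.27) and Tead3 (0.82 ± 0.32), the coactivator Wwtr1 (0.78 ± 0.21) and the receptor Axl (1.68 ± 0.37) were higher, and the feedback gene Amotl2 (-1.27 ± 0.2) was lower. Tead3 lost its call without embryo 1 (0.87), embryo 2 (0.87), embryo 3 (0.73), passage 10 (0.83), passage 11 (0.7), passage 18 (0.76), passage 12 (0.79) or with line 2 alone (0.52).

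Cdh1 and Cdh2, both classical cadherins, moved in opposite directions. Cdh1, E-cadherin of the epiblast epithelium (chr8:106603351-106670246), had 688, 634 and 744 CPM in the embryos and 151 to 320.1 CPM (median 217) in FS cells (log2 fold change -1.57, SE 0.17, adjusted p = 7.04e-07). Cdh2, N-cadherin, had 13.9, 24.3 and 10.7 CPM and 52.9 to 61.1 CPM (median 54.2) (log2 fold change 1.76, SE 0.3, adjusted p = 1.37e-04). Neither overlapped between the groups. Of 19 genes that mark epithelial or mesenchymal cells 5 rose and 9 fell (median -0.08). Of the 10 epithelial genes 7 fell and 1 rose, and the highest log2 fold change among them was 3.09. Those that fell included the tight junction genes Cldn6 (-2.11 ± 0.37) and Cldn7 (-2.79 ± 0.6) and the splicing factor Esrp1 (-2.01 ± 0.26). Of 9 mesenchymal genes 4, Cdh2 among them, rose and 2 fell. Zeb1, a repressor of Cdh1, went from 1.45, 1.39 and 1.28 CPM in the embryos to 33.6 to 53.7 CPM (median 42.2) in FS cells (log2 fold change 4.95, SE 0.37, adjusted p = 3.19e-09), Zeb2 from 5.83 ± 1.67 to 50.2 ± 7.81 CPM and Vim, an intermediate filament, from 26 ± 7.46 to 201 ± 26 CPM. Snai1, the repressor induced in the streak, went the other way, from 7.85 ± 1.58 to 1.15 ± 1.26 CPM (log2 fold change -2.8, SE 0.59, adjusted p = 7.73e-04), and Twist1 fell as well (-1.46 ± 0.46), a call lost without embryo 1 (-1.35), embryo 2 (-1.2) or with line 1 alone (-1.39).

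Genes of early neural cells included 4 that rose and none that fell among 12 tested of 15 (median 1.95). Of 9 tested transcription factors in the list 1 rose (11.1%; among all genes tested 20.1% rose), and the other risers were its 3 remaining genes. Ncam1, a neural cell adhesion molecule, had 4.21, 3.47 and 3.73 CPM in the embryos, 33.6, 33.3 and 36.3 CPM in line 1 and 48.8, 52.5 and 61.8 CPM in line 2 (log2 fold change 3.55, SE 0.3, adjusted p = 1.27e-08). Sox1, an early factor of the neural plate, had 0.92, 0.693 and 0.107 CPM in the embryos and 2.01 to 35.1 CPM (median 12) in FS cells (log2 fold change 4.81, SE 0.96, adjusted p = 8.01e-04), and Nes rose from 141 ± 17.2 to 315 ± 42.5 CPM. Cdh2 was the other riser.

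The clustered protocadherins, adhesion proteins of neurons whose promoters are chosen cell by cell, had the highest median: of 55 genes 34 were tested, 32 rose and none fell, with a median log2 fold change of 5.20, or 4.66 with genes at 0 counts in E6.0 set to their bound. Of the tested members 9 had no count in any embryo and passed the filter on low counts through the cultures, so that the count and the median describe the list and support nothing. Summed over the list, the level was 3.73 to 5.89 CPM in the embryos and 133 to 178 CPM in FS cells. Against E6.0, line 1 alone gave 32 higher genes and line 2 alone 32. Their variable exons share end exons within a cluster, so reads can be divided among members, and the number that rose ran from 8 to 33 over the alternative analyses, lowest with a floor of 5 CPM that few members reach.

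Genes of the extracellular matrix moved in both directions. Of 35 tested collagens of 44, 11 rose and 3 fell (median 0.92), including Col6a1 (3.62 ± 0.71), Col1a1 (2.75 ± 0.64) and Col5a3 (2.92 ± 0.85) upward and Col14a1 (-3.78 ± 0.72), Col17a1 (3 counts in all FS samples, ratio 9.85 (95% counting interval 2.66 to 54.4)) and Col18a1 (-1.06 ± 0.15) downward. The fitted log2 fold change of Col17a1, -2.89, lost its call without embryo 2 (-2.65), embryo 3 (-2.85), passage 18 (-2.65), passage 12 (-2.65), passage 16 (-2.57) or with line 2 alone (-2.13). Of 16 genes of the basement membrane and integrins, 4 rose and 1 fell (median 0.28), with the linker Nid1 (2.42 ± 0.35), Sparc (1.25 ± 0.35), Itgav (0.49 ± 0.17) and Lamc1 (0.39 ± 0.15) higher and the laminin chain Lama5 lower (-0.94 ± 0.14). Itgav lost its call without embryo 1 (0.49), embryo 3 (0.44) or with line 1 alone (0.46). Lamc1 lost its call without embryo 1 (0.36), embryo 2 (0.47), embryo 3 (0.36), passage 10 (0.39), passage 12 (0.31) or with line 1 alone (0.32). Sparc lost its call with line 1 alone (0.6, adjusted p = 0.091).

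Genes of sterol and fatty acid synthesis rose almost throughout: 25 of 29 were higher and 2 lower (median 1.76). These genes are induced by SREBP factors when the endoplasmic reticulum is short of sterol, and INSIG1 holds that response back. Hmgcs1, which makes the precursor of mevalonate (chr13:119690379-119708260), had 76.1, 72.3 and 98.7 CPM in the embryos and 485 to 697 CPM (median 568) in FS cells, a 7.1-fold rise (log2 fold change 2.83, SE 0.18, adjusted p = 1.02e-10). Its promoter is shown as the list's clearest pair of motifs: chr13:119690101-119690350 on the plus strand (GRCm38.p6), with TCACNCCAC, the core of a sterol response element, and CCAAT, bound by NF-Y, searched on both strands and in capitals (ATTGG is CCAAT on the other strand).
Hmgcs1: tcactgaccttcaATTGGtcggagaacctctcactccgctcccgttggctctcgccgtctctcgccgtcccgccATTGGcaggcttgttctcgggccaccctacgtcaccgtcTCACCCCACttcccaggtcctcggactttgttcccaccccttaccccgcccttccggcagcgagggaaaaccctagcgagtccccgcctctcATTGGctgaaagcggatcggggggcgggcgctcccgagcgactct

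TCACNCCAC was found in this 1 of 19 members with a promoter in the table, against 1.44% of all genes, and CCAAT in 16 of 19, against 41.1%. Msmo1, which removes methyl groups from the sterol ring, rose from 17.2, 13.2 and 21.1 CPM in the embryos to 152 to 220.1 CPM (median 189.7) (log2 fold change 3.44, SE 0.21, adjusted p = 1.02e-10) and Fdps, which makes farnesyl diphosphate, by 3.78 ± 0.39. All sterol enzymes but Idi1 passed, 16 of 17. Idi1 was at 73.9, 60.5 and 76.2 CPM in line 1, 236, 333 and 180.2 CPM in line 2 and 60.5, 67.8 and 82.8 CPM in the embryos (log2 difference, line 2 minus line 1, 1.83, SE 0.22, adjusted p = 1.89e-05). The factors themselves rose, Srebf2 from 107 ± 12.1 to 269 ± 25.2 CPM and Srebf1 by 1.8 ± 0.16. Insig1 and Scd1 fell. Scd1, a desaturase, had 44.6, 41.2 and 44.8 CPM in the embryos, 13, 2.13 and 1.3 CPM in line 1 and 5.39, 9.61 and 10.7 CPM in line 2 (log2 fold change -2.61, SE 0.41, adjusted p = 1.37e-04), the reverse of its neighbour gene Scd2.

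**Figure D4:**
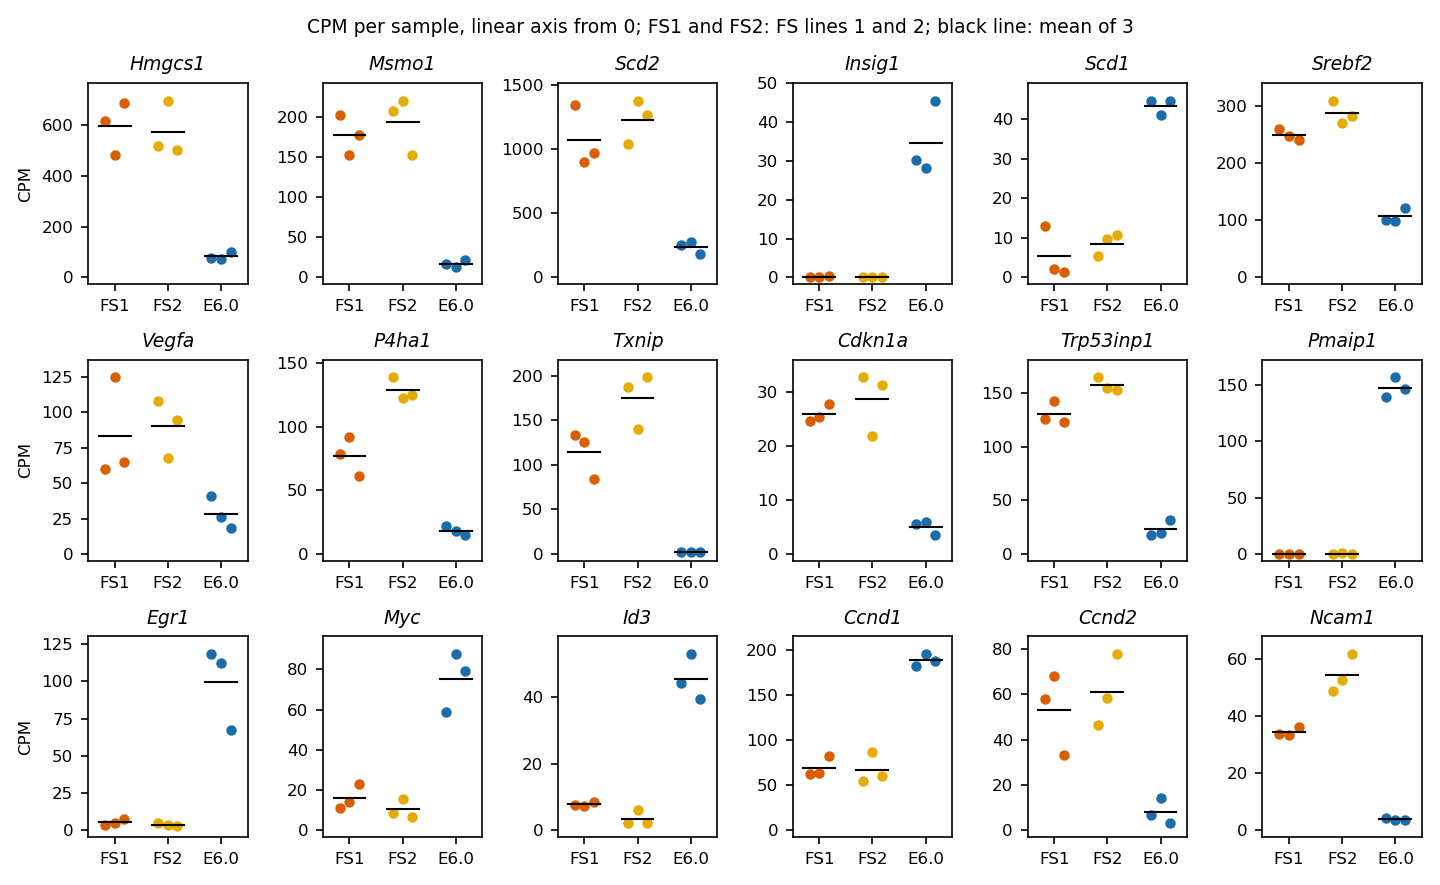
CPM of 18 genes of sterol synthesis, hypoxia, p53, immediate early response, BMP targets, cell cycle and neural adhesion (one panel per gene, linear y axis from 0) in FS line 1, FS line 2 and E6.0, 3 samples each; points are samples and black lines means. Hmgcs1, Msmo1, Txnip and Trp53inp1 are higher in every FS sample than in any embryo, and Insig1, Pmaip1, Egr1 and Ccnd1 lower in every FS sample.

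Genes induced by low oxygen were higher: 8 of 14 rose and none fell (median 1.24). P4ha1, a prolyl hydroxylase of collagen (chr10:59323296-59373304), had 22.2, 17.8 and 14.8 CPM in the embryos, 78.7, 91.8 and 61 CPM in line 1 and 139, 123 and 125 CPM in line 2 (log2 fold change 2.5, SE 0.29, adjusted p = 3.30e-06). Its promoter, chr10:59323046-59323295 on the plus strand (GRCm38.p6), is shown with ACGTG, the core bound by hypoxia-inducible factors, in capitals; the match lies on the other strand and so reads CACGT.
P4ha1: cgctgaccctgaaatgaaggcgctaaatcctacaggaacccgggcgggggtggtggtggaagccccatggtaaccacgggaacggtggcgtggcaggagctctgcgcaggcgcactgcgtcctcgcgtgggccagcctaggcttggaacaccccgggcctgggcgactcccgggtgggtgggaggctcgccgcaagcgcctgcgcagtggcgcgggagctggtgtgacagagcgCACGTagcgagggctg

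ACGTG, which CACGTG contains, was found in 10 of 12 members with a promoter in the table, against 21.8% of all genes and 31.7% of the CpG-rich ones. Ndrg1, a stress-induced protein, rose from 2.09 ± 0.796 to 33.6 ± 14.3 CPM (log2 fold change 4.0, SE 0.68, adjusted p = 2.30e-04), the angiogenic ligand Vegfa from 41, 25.9 and 18.3 CPM in the embryos to 60.3 to 125 CPM (median 81.1), Ankrd37 by 1.95 ± 0.43 and the mitophagy receptor Bnip3 by 1.31 ± 0.32. Of 16 glycolysis genes 3 rose and 1 fell (median 0.26). The kinases Pfkp (1.94 ± 0.34) and Hk1 (0.48 ± 0.19) and the glucose transporter Slc2a3 (1.29 ± 0.37) were higher and Ldha lower (-0.35 ± 0.11), while Gapdh (-0.19 ± 0.11), Pkm (-0.11 ± 0.08) and Eno1 (-0.07 ± 0.08) did not pass. The call of Slc2a3 was lost without embryo 3 (1.2). Hk1 lost its call without any 1 of the 9 samples (0.42 to 0.55), with line 1 alone (0.45), line 2 alone (0.52), no filter (0.47) or no ribosomal or mitochondrial loci (0.46). Ldha lost its call without embryo 1 (-0.33), embryo 2 (-0.33) or with line 1 alone (-0.31).

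Transcripts of the mitochondrial genome were mostly lower. Of 22 tested mitochondrial genes of 35, 16 fell and 1 rose (median -1.08), the riser being mt-Nd6 (0.83 ± 0.2), the one coding gene of the light strand. Complex I, IV and III transcripts mt-Nd1, mt-Co1 and mt-Cytb had log2 fold changes of -1.44 ± 0.16, -0.7 ± 0.11 and -1.1 ± 0.17. Of 76 tested nuclear genes of oxidative phosphorylation 32 fell and 3, namely Cox6b2, Atp5s and Ndufb2, rose (median -0.32). The calls of Atp5s (1.52) and Ndufb2 (0.98) were lost in several settings. For Atp5s this held without any 1 of the 9 samples (1.28 to 1.73), with line 1 alone (1.35), line 2 alone (1.66) or no filter (1.5). For Ndufb2 it held without embryo 2 (0.87), embryo 3 (0.9), passage 10 (0.92), passage 11 (0.82), with line 2 alone (0.69) or no filter (0.97). Among genes of cytoplasmic ribosomal proteins 77 of 87 fell and none rose (median -0.53), Rps4l by the most, and the sum was 25740 to 28240 CPM in FS cells against 35660 to 40400 CPM in the embryos. Of 11 purine genes 8 fell and none rose (median -0.47), all 8 among the 9 of synthesis, led by Atic (-1.15 ± 0.13) and Ppat (-0.81 ± 0.16). Of 68 clustered histone genes 31 fell and none rose (median -0.49).

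Most targets of p53 were higher. Of 17 tested of 18, 13 rose and 1 fell (median 1.69). Cdkn1a, the cell cycle inhibitor p21 (chr17:29090976-29100727), had 5.52, 5.98 and 3.52 CPM in the embryos and 21.9 to 32.7 CPM (median 26.5) in FS cells (log2 fold change 2.44, SE 0.35, adjusted p = 1.39e-05). Trp53inp1, a proapoptotic cofactor of p53, had 17.9, 19.2 and 31.8 CPM and 123 to 165 CPM (median 148) (log2 fold change 2.65, SE 0.23, adjusted p = 3.42e-08). The groups did not overlap for either. Perp, a membrane protein, rose by 3.59 ± 0.48, Ccng1 by 2.37 ± 0.26 and Mdm2, which degrades p53, by 0.65 ± 0.17, a call lost with line 1 alone (0.4). Bax (-0.2 ± 0.14) and Bbc3 (0.28 ± 0.4), which open the mitochondrial path of cell death, did not pass, and Pmaip1, of the same path, was the gene that fell.

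Other stress lists moved less evenly. Among 18 genes of the ATF4 response 7 rose and 1 fell (median 0.51): Ddit4, an inhibitor of mTORC1, rose from 5.36 ± 1.51 to 70.6 ± 24.5 CPM (log2 fold change 3.72, SE 0.6, adjusted p = 1.50e-04), and Vldlr and Atf5 by 2.12 ± 0.46 and 1.79 ± 0.33. The amino acid transporter chain Slc3a2 fell (-0.47 ± 0.16, lost without embryo 1 (-0.41), embryo 3 (-0.48) or with line 2 alone (-0.3)), and Atf4 itself (-0.12 ± 0.15) did not pass. Of 8 genes of the unfolded protein response (median -0.17) Xbp1 rose (0.91 ± 0.25) and Dnajb9 (-1.11 ± 0.24) and Calr (-0.47 ± 0.16) fell, the call of Calr being lost without embryo 2 (-0.44), embryo 3 (-0.41) or with line 1 alone (-0.39) and that of Xbp1 with line 1 alone (0.43, adjusted p = 0.138). The metal-binding proteins Mt1 and Mt2 fell from 133 ± 44 and 73.1 ± 17.2 CPM to 32.9 ± 16.5 and 8.5 ± 4.66 CPM, in a list of 11 metallothionein and NRF2 genes (median -0.26) in which Gclm also fell (-0.53 ± 0.17) and Srxn1 rose (1.53 ± 0.31). The call of Gclm was lost without embryo 1 (-0.5), embryo 3 (-0.51) or with line 2 alone (-0.38).

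Genes of the interferon response and of MHC class I antigen display were higher in 7 and lower in 1 of 14 tested of 16 (median 2.07), by role as follows: 5 of 7 MHC class I genes rose and 1 fell, while 2 of 7 interferon genes rose (28.6%, beside 20.1% of all genes) and none fell. The lower gene was Psmb8 (-1.84 ± 0.64, with overlapping ranges), whose call was lost without embryo 2 (-1.58), embryo 3 (-1.43), passage 10 (-1.73), passage 12 (-1.76), with line 1 alone (-1.78), line 2 alone (-1.9) or no filter (-1.86). The class I heavy chains H2-K1 and H2-D1 rose from 2.31 ± 0.382 and 5.79 ± 3.13 CPM to 23.7 ± 11.1 and 35.9 ± 9.55 CPM, and the peptide transporter Tap1 from 1.46 ± 0.867 to 18.6 ± 3.79 CPM (log2 fold change 3.67, SE 0.36, adjusted p = 9.53e-08). Class I genes are close copies of one another, so their read counts are uncertain. Bst2, an interferon-induced tether of viruses, was at 13, 8.99 and 5.14 CPM in line 1, 56.6, 58.2 and 53.1 CPM in line 2 and 10.5, 18.1 and 19.8 CPM in the embryos, and did not pass over both lines (log2 fold change 1.01, SE 0.62, adjusted p = 0.21).

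Cell cycle genes of 1 family moved in different directions. Of 15 genes 5 rose and 5 fell (median 0.23). Among the D-type cyclins, which start the cycle with CDK4 and CDK6, Ccnd1 had 182, 195 and 187 CPM in the embryos and 54.2 to 86.8 CPM (median 62.6) in FS cells (log2 fold change -1.47, SE 0.25, adjusted p = 1.57e-04) and Ccnd2 had 6.84, 14.5 and 3.3 CPM and 33.4 to 78 CPM (median 58.3) (log2 fold change 2.77, SE 0.47, adjusted p = 2.23e-04). Ccnd3 rose (0.47 ± 0.13), a call lost without embryo 3 (0.38) or with line 2 alone (0.37), the kinase Cdk4 fell (-0.57 ± 0.11) and Cdk6 rose (1.91 ± 0.41). Ccne1 fell by 1.43 and Mycn by 1.65 on the log2 scale, Myc being the other gene that fell, and the inhibitors Cdkn1a and Cdkn1c (1.52 ± 0.23) rose.

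Imprinted genes, which are read from 1 parental copy, rose more often than they fell: 11 against 1 of 28 (median 0.67), the lower one being Snrpn (-0.46 ± 0.16, with overlapping ranges), whose call was lost without embryo 1 (-0.46), embryo 3 (-0.39), passage 10 (-0.36), passage 18 (-0.42) or with line 2 alone (-0.26). Sgce, a sarcoglycan, had 0.394, 0.78 and 1.28 CPM in the embryos and 10.2 to 15.7 CPM (median 11.1) in FS cells (log2 fold change 3.84, SE 0.61, adjusted p = 5.06e-05), and its neighbour Peg10 rose by 1.64 ± 0.28. Igf2, a growth factor, had 2.89, 4.07 and 3.41 CPM in the embryos and 11.8 to 49 CPM (median 19.8) in FS cells (log2 fold change 2.71, SE 0.6, adjusted p = 0.002), below the 227 ± 94.3 CPM of AF cultures, with FS minus AF at -3.30 (adjusted p = 9.21e-05). H19, its maternally expressed neighbour, was at 0.199, 0.118 and 0.0815 CPM in line 1, 25.1, 17.2 and 29.3 CPM in line 2 and 38.4, 64.1 and 64.6 CPM in the embryos. Line 1 held almost none and line 2 lay between line 1 and the embryos (log2 difference, line 2 minus line 1, 7.4, SE 1.13, adjusted p = 0.002). Kcnq1ot1, the long RNA of another imprinted domain, was at 1.69, 1.06 and 1.55 CPM in line 1, 253, 355 and 314 CPM in line 2 and 316, 189 and 191 CPM in the embryos (log2 difference, line 2 minus line 1, 7.71, SE 0.32, adjusted p = 1.34e-12). Meg3 had 387 to 794 CPM (median 599) in FS cells and 619, 225 and 279 CPM in the embryos and did not pass.

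The sexes of the samples, read from sex-linked genes, were mixed. Xist, transcribed from an inactive X chromosome, was at 721, 533 and 272 CPM in line 1 and at most 0.951 CPM in line 2, and the embryos had 0.657, 969 and 855 CPM. The Y-linked gene Ddx3y was at 0.199, 0.355 and 0.0815 CPM in line 1, 76.4, 96 and 85 CPM in line 2 and 77, 0 and 0.639 CPM in the embryos. Line 1 and embryos 2 and 3 thus carried the female pattern and line 2 and embryo 1 the male one. The X-linked housekeeping gene Hprt had 57.8 to 83.7 CPM (median 65.6) in FS cells and 58.9, 69.2 and 66.4 CPM in the embryos (log2 fold change 0.06, SE 0.24, adjusted p = 0.86). Within each group, sex and line or embryo cannot be told apart.

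**Figure D5:**
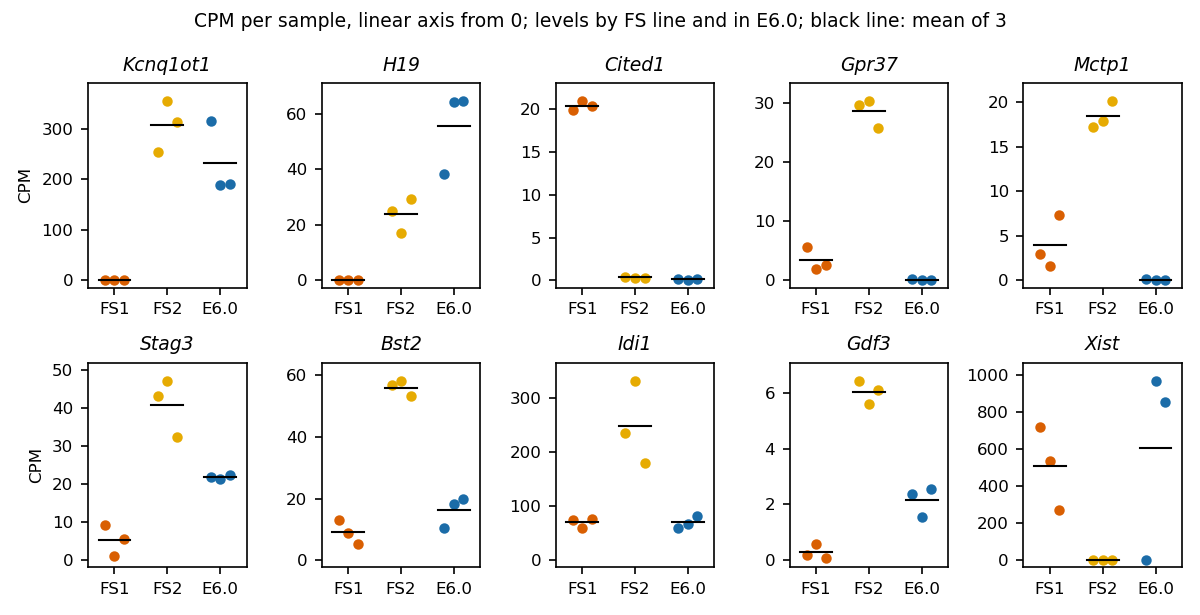
CPM of 9 genes that differed between the 2 FS lines by edgeR and of Xist, which did not pass (adjusted p = 0.060) (one panel per gene, linear y axis from 0) in FS line 1, FS line 2 and E6.0, 3 samples each; points are samples and black lines means. Kcnq1ot1 and H19 are near 0 in line 1 alone, Cited1 is high in line 1 alone, Stag3, Bst2, Gpr37, Mctp1, Idi1 and Gdf3 are highest in line 2, and Xist is near 0 in line 2 and embryo 1.

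Each line was also compared with E6.0 on its own. Both comparisons came from a single fit of all samples with the lines as separate groups, and they share the embryos. Line 1 gave 2710 higher and 2709 lower genes (16.3% each) and line 2 gave 3037 (18.3%) and 2859 (17.2%). For the sterol list the numbers of higher genes were 24 and 26, for p53 targets 12 and 13, and for the interferon and MHC list 6 and 10. The numbers of lower genes were 14 and 12 for germline genes, 11 and 11 for the NODAL pathway, 2 and 7 for the primitive streak and 14 and 30 for clustered histones. Differences between the lines in these numbers were not tested.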

How the data were processed

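RNA was extracted from small samples with the PicoPure kit, per the labels' protocols. Per the submitters' processing notes, reads were trimmed with Trim Galore, aligned to mm10 with TopHat2 2.1.0 and counted with featureCounts 1.5.0. The strand setting and annotation are not given in the sources used here. The authors deposited raw read counts for 33861 genes, of which 33683 were matched by identifier to GENCODE M21 coordinates. Counts of 21 samples in 6 groups were fitted with edgeR 4.0.16 in R 4.3.3 (TMM scaling, filterByExpr, robust quasi-likelihood F-test, two-sided), and p-values were adjusted over 16614 genes by Benjamini-Hochberg with a threshold of 0.05. CPM are counts per library scaled with TMM factors, and 3 counts in an FS or E6.0 library equal 0.171 to 0.394 CPM. Bounds and ratios cover counting error only. On simulated counts for 16018 genes, of which 200 were changed, 54% of 2-fold and 76% of 4-fold changes were recovered, and 5 of 135 calls were false. Far fewer genes were changed there than were called in the data, so these rates do not carry over to the real contrast. The alternatives were DESeq2 1.42.0, its size factors, other filters and samples, and leaving out each library in turn (18 in all).

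Genes named one by one were up to 12 risers and 12 fallers with the largest fold change at a mean of at least 10 CPM without overlap, up to 5 each way by level, up to 3 each way per list at a mean of at least 2 CPM, and anchor genes named whatever their result. Other members of the lists were added after their values were seen. The genes, lists and motifs were chosen with earlier results of these data known. A few genes of the lists are counted but not reported by name here.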

Additional observations from a re-analysis of the deposited data

Results flagged for a closer look

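In 11 of 185 genes considered, with a mean of at least 2 CPM, 1 of the 6 FS samples stood far from the other 5. The value given is the gap to the nearest other sample as a share of the whole range, which lay above the 95% critical value of Dixon's test; chance flags about 1 in 20 groups. Passage 10 of line 1 was that sample for T (0.888), Chrd (0.722), Fgf8 (0.707), Axin2 (0.650) and Pkm (0.644), and it was the high one for each. It had 30.5 CPM of T, 27.3 of Fgf8 and 31.4 of Chrd, where the next highest FS samples had 3.43, 8.4 and 11.7 CPM. Passage 11 of line 1 stood apart for Bax (0.679), where it was low, and for Igf2 (0.671) and Furin (0.659), where it was high. Passage 12 of line 2 was high for Il6st (0.657) and Lamc1 (0.653), and passage 13 of line 2 for Ccl19 (0.769).

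The 2 FS lines differed from each other in 20 of 234 named genes tested, beside 2.63% of all genes. Many named genes were chosen for large changes or after their values were seen, so these 2 figures cannot be compared. Xist and Ddx3y, which were near 0 in 1 line alone, did not pass the test between lines (adjusted p = 0.0597 and 0.129). The log2 difference, line 2 minus line 1, was 7.71 for Kcnq1ot1, 7.40 for H19, 5.31 for Gm14149, 5.27 for Gm10040, 5.00 for Gm9864, 4.45 for Gdf3, 3.45 for Trim25, 3.07 for Gpr37, 2.91 for Stag3, 2.64 for Bst2, 2.18 for Mctp1, 1.83 for Idi1, 1.24 for Fgf4, 1.10 for Sparc, 0.84 for Xbp1 and 0.61 for Dusp6. Lower in line 2 were Cited1 (-5.80), Ap1m2 (-5.13), Cldn7 (-2.69) and Cldn6 (-1.44). Adjusted p-values of these differences in edgeR's quasi-likelihood test ran from 1.34e-12 for Kcnq1ot1 to 0.0334 for Xbp1. Ap1m2 had a mean of 0.408 CPM in line 1 and no count in line 2, so that its difference rests on few reads.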

How the results depend on the processing

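No paired analysis was possible because the FS passages and the E6.0 embryos share no replicate number. The counts of called genes stayed within 1.5 times over 18 alternatives, except that a floor of 5 CPM gave 1443 genes at least 2-fold higher and 469 lower; this setting tested 10959 genes. Leaving out 1 library gave 2288 to 3220 higher and 2385 to 3049 lower genes, and 1718 to 2227 and 748 to 873 at 2-fold, lowest without an embryo. Of 209 named genes that passed, 164 kept their call and none changed sign in the alternatives that tested them; 175 of the 209 were tested in all 18.

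Signs turned in 11 genes that did not pass over both lines, and the cause was not tested. With line 1 alone, Bst2 (-0.85), Ddx3y (-6.92), Fgf5 (0.018), Gdf3 (-2.95), Idi1 (-0.003), Stag3 (-2.02) and T (0.91) turned. Of these, Gdf3, Stag3 and Bst2 then passed edgeR's test (adjusted p = 4.18e-05, 0.00377 and 0.0228). Bst2 passed in the other direction with line 2 alone (1.785, adjusted p = 2.77e-05). With line 2 alone Fgf4 (0.41), Hprt (-0.008) and Kcnq1ot1 (0.41) turned. Further turns came with the lines as separate groups for Ddx3y (-2.58), Gdf3 (-0.73) and Stag3 (-0.56). Sox2 turned with FS and E6.0 alone (-0.003), and T by DESeq2 (0.046) and with the 5 CPM floor (0.017). Leaving out 1 library gave -2.50 to 1.76 for T, -0.085 to 0.18 for Sox2, -0.26 to 0.18 for Fgf4, -0.008 to 0.11 for Hprt and -0.23 to 0.33 for Stag3. List medians turned for the retinoic acid pathway (-0.10 with the floor, -0.16 with line 2), cell cycle entry (-0.23 with the floor, -0.33 with FS and E6.0 alone, -0.31 with line 2, and -0.28 to 0.26 leaving out 1 library), the BMP pathway (-0.44 to 0.006) and trophoblast genes (2.03 with FS and E6.0 alone). As 3 counts equal 0.171 to 0.394 CPM by library, values below that range are within 3 counts of 0.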
